A study of Mus musculus with 4 samples.

Results

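The genes described here are the 5 regulators of neural crest named *Tfap2a*, *Tfap2b*, *Tfap2c*, *Nr2f1* and *Nr2f2*, taken by symbol from the 13577 genes of a 3′ RNA-Seq table of E11.5 mouse nasal process (NP) tissue. All 5 were listed and all 5 passed the filter on low values, which left 12462 genes. The comparison had 2 libraries titled control and 2 titled ca-*Acvr1* mutant. Per the study's methods, mutants were ca-*Acvr1(A11)* fl/+;P0-Cre and controls were ca-*Acvr1(A11)* +/+;P0-Cre, so both carried P0-Cre and only the mutants carried the floxed constitutively active *Acvr1* allele, which encodes a BMP type I receptor. P0-Cre recombines in neural crest, the background was mixed, both sexes were used, and no source states whether a library was made from 1 embryo or a pool. The genotype entries contradict the titles, with the transgene entered for the libraries titled control and P0-Cre alone for those titled mutant. The titles were used, and each direction below would turn if the genotype entries were right. *Acvr1* itself could not settle it, since no source used here says whether transgene transcripts are counted under that gene. *Acvr1* had 21.5 and 23.1 CPM (reads scaled to the library total) in the control group and 24.1 and 12.6 CPM in the ca-*Acvr1(A11)* group. Library totals ran from 1956831 to 2408827 reads.

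TFAP2 proteins are transcription factors that bind as dimers to GC-rich palindromes and act in neural crest induction and survival, in the facial ectoderm and in the melanocyte lineage. Loss of *Tfap2a* in mice causes severe facial and body wall clefts, *TFAP2B* is mutated in a human syndrome of the face, heart and hand, and *Tfap2c* is also needed for the trophoblast and germ line. NR2F1 and NR2F2, also called COUP-TFI and COUP-TFII, are orphan nuclear receptors that bind repeats of AGGTCA and often repress transcription. Both families occupy enhancers of cranial neural crest cells and serve as markers of the crest that builds the face.

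Promoter windows of RefSeq (GRCm38.p6) are given for the 3 genes whose libraries did not overlap between groups, so that the letters around their starts can be read beside the levels. A window runs 5′ to 3′ on the gene's strand, from bases before the start to shortly after it, and capitals mark a match on either strand to the TFAP2 palindrome GCCNNNGGC, the NR2F half-site AGGTCA or GGCGCC, a GC-rich element bound by BMP SMAD proteins.
*Nr2f1*, chr13:78198824-78199123, minus strand: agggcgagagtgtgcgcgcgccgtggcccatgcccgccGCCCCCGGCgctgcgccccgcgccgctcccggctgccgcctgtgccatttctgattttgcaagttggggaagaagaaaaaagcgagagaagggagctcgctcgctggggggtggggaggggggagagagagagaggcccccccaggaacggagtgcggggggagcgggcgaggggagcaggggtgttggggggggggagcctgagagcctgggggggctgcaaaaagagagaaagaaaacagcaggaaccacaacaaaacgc
*Nr2f2*, chr7:70366697-70366996, minus strand: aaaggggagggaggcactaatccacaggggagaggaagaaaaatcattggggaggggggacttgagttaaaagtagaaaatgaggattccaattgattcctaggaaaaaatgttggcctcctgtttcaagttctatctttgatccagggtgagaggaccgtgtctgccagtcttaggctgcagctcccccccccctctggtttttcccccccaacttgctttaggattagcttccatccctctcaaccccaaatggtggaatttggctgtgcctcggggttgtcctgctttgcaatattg
*Tfap2b*, chr1:19211804-19212103, plus strand: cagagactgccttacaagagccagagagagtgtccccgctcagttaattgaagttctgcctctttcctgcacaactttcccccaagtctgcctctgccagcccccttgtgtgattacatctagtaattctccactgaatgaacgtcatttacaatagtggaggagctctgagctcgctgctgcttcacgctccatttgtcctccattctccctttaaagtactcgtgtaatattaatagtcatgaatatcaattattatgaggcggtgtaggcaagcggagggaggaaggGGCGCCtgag
The *Nr2f1* window shown held 1 TFAP2 palindrome, which began 212 bases before the start, and the second *Nr2f1* window, chr13:78196400-78196699, held none of these letters. The *Tfap2b* window held 1 GGCGCC, which began 40 bases after the start, and the *Nr2f2* window held none of these letters. Windows matched 4 of the 5 genes, 6 windows in all with 2 each for *Tfap2a* and *Nr2f1*. GCCNNNGGC was in 1 of the 6 and in 16.6% of 32851 promoter windows, AGGTCA was in 0 of the 6 and in 16.3%, and GGCGCC was in 1 of the 6 and in 11.9%. A match is a run of letters and not a measured binding site.

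*Nr2f1* was lower in the ca-*Acvr1(A11)* libraries, and it was the only 1 of the 5 genes past the threshold. All 5 fold changes were below 0, that of *Tfap2c* (−0.07) by less than its SE (0.22). The groups did not overlap for *Nr2f1*, *Nr2f2* and *Tfap2b*. *Tfap2a* and *Tfap2c* were an order lower in level and overlapped between groups. By limma on log2(CPM + 1) with Benjamini-Hochberg adjustment over all genes tested, 1 of 5 passed as lower and 0 as higher, against 0.594% of all genes called lower. At an unadjusted p under 0.05, 3 of 5 were lower, against 4.12% of all genes. The 3 of 5 with both ca-*Acvr1(A11)* libraries below both control libraries stand beside 16.8% of all genes. The median log2 fold change of the 5 was −0.35 and that of all genes tested was 0.03. Nothing in the labels says that the libraries came from separate embryos, so p-values measure only the spread between these libraries.

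**Figure D1:**
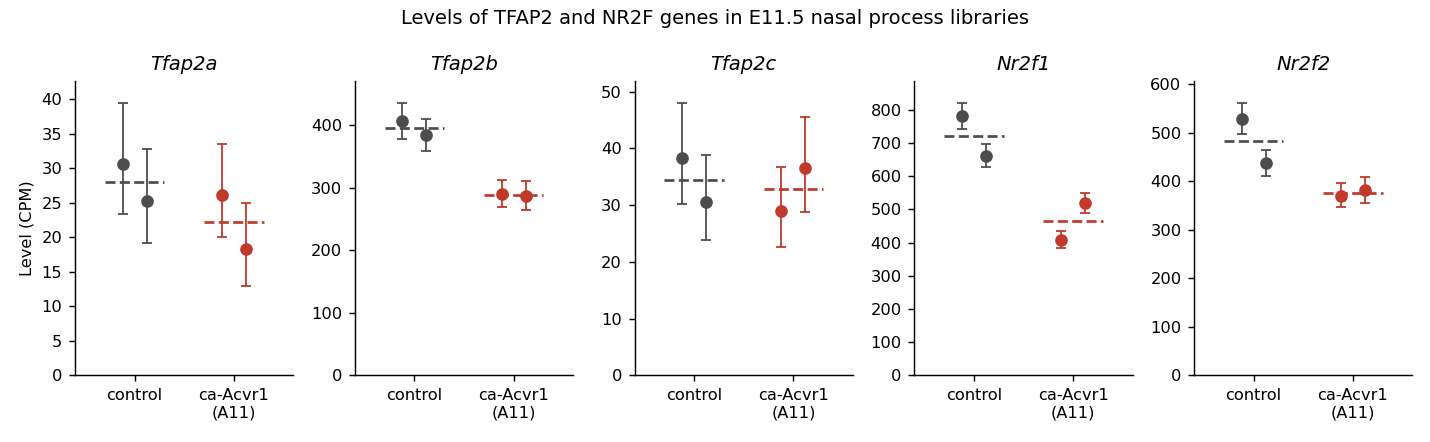
Level of each gene (CPM, linear axis from 0, its own scale per panel) in the 2 control and the 2 ca-Acvr1(A11) libraries. Bars are the exact Clopper-Pearson (binomial) 95% interval of counting error, and dashed lines are group means (n = 2). The groups are apart for Tfap2b, Nr2f1 and Nr2f2 and overlap for Tfap2a and Tfap2c.

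*Nr2f1* (Entrez 13865; GRCm38 chr13:78188973-78199757, minus strand, protein coding) encodes COUP-TFI, known for patterning the forebrain, eye and inner ear and for the crest of the face. It had 780 and 661 CPM in the control and 409 and 518 CPM in the ca-*Acvr1(A11)* group, from 1527, 1490, 985 and 1107 reads. Both ca-*Acvr1(A11)* libraries were below both controls, and replicates differed by 0.24 on the log2 scale in the control and by 0.34 in the ca-*Acvr1(A11)* group. The means were 721 ± 84.1 and 463 ± 77.1 CPM (SD, n = 2). The log2 fold change was −0.64 (SE 0.14, limma adjusted p = 0.0215), a change of −35.9% with a 95% interval from −47.8% to −21.3% that is not adjusted for the number of genes. It ranked at place 79 of all genes by p. With whole reads recovered from the CPM steps, edgeR's quasi-likelihood test also called it lower, adjusted p = 0.0142, where 0.924% of genes were called lower. The call rested on ca-*Acvr1(A11)* replicate 1, the library with the lowest *Nr2f1*: without it the log2 fold change was −0.47 with limma adjusted p = 0.478. The largest overlap of an *Nr2f1* exon with an exon of *A830082K12Rik*, on the other strand, was 103 bases. *A830082K12Rik* had 4.21 to 10.8 CPM. No source used here gives the strand setting of the counting, so reads from the shared bases cannot be assigned.

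*Nr2f2* (Entrez 11819; GRCm38 chr7:70351944-70366735, minus strand, protein coding) encodes COUP-TFII, known for its roles in veins, atria and mesenchyme. It had 528 and 437 CPM in the control and 370 and 381 CPM in the ca-*Acvr1(A11)* group, from 1033, 984, 892 and 814 reads. The control libraries differed from each other by more than the ca-*Acvr1(A11)* libraries did, by 0.27 on the log2 scale, and the groups did not overlap. Means were 482 ± 64.4 and 376 ± 7.49 CPM (SD, n = 2). The log2 fold change of −0.35 (SE 0.14, 95% interval −0.64 to −0.07) did not pass after adjustment, limma adjusted p = 0.361. The largest overlap of an *Nr2f2* exon with an exon of *B130024G19Rik*, on the other strand, was 643 bases. *B130024G19Rik* had 8.43 to 16.9 CPM.

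*Tfap2b* (Entrez 21419; GRCm38 chr1:19208914-19238576, plus strand, protein coding) held most of the TFAP2 reads in this tissue. It had 406 and 384 CPM in the control and 291 and 287 CPM in the ca-*Acvr1(A11)* group, from 795, 864, 700 and 613 reads. Replicates lay close together, 0.08 apart on the log2 scale in the control and 0.02 in the ca-*Acvr1(A11)* group. Means were 395 ± 16.1 and 289 ± 2.65 CPM (SD, n = 2), a ratio of 0.731. The log2 fold change of −0.45 (SE 0.13, 95% interval −0.73 to −0.17) had an unadjusted p of 0.00241 in limma and did not pass after adjustment, adjusted p = 0.152.

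*Tfap2a* (Entrez 21418; GRCm38 chr13:40715302-40738376, minus strand, protein coding) is the TFAP2 gene best known in crest induction. It had 30.7 and 25.3 CPM in the control and 26.2 and 18.2 CPM in the ca-*Acvr1(A11)* group, from 60, 57, 63 and 39 reads. Its exons overlap the antisense genes *Gm26688*, *Gm47067* and *Gm47061*, not analyzed here. The groups overlapped, since ca-*Acvr1(A11)* replicate 1 lay between the controls. The log2 fold change was −0.34 (SE 0.24, 95% interval −0.83 to 0.16, limma adjusted p = 0.731). *Tfap2c* (Entrez 21420; GRCm38 chr2:172549593-172558622, plus strand, protein coding) is known in the early ectoderm. It had 38.3 and 30.6 CPM in the control and 29.1 and 36.5 CPM in the ca-*Acvr1(A11)* group, from 75, 69, 70 and 78 reads. Each group had 1 high and 1 low library, and the log2 fold change was −0.07 (SE 0.22, 95% interval −0.51 to 0.37, limma adjusted p = 0.958). The value of −0.45 of *Tfap2b* lies inside the 95% intervals of both genes.

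**Figure D2:**
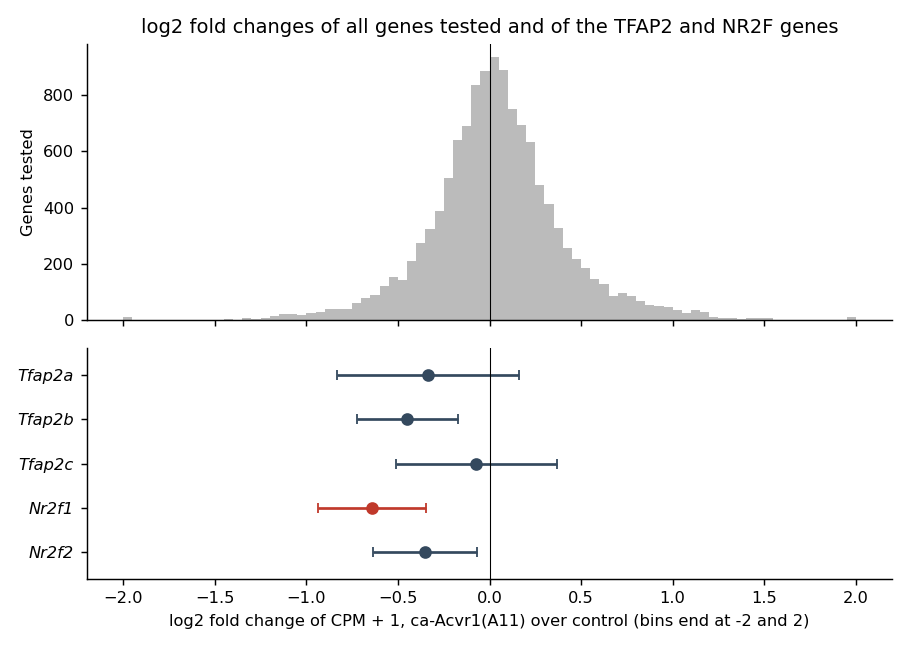
Top, number of genes tested per bin of log2 fold change, ca-Acvr1(A11) over control (n = 2 and 2); bottom, the log2 fold change of each TFAP2 and NR2F gene with its 95% interval from limma, red where adjusted p is under 0.05. All 5 points are left of 0 and the intervals of Tfap2a and Tfap2c cross it.

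Because 3′ libraries read each transcript near its end, levels could be set side by side between genes without a correction for length. In that order of mean CPM over the 4 libraries *Nr2f1* (592 CPM) came first, then *Nr2f2* (429), *Tfap2b* (342), *Tfap2c* (33.6) and *Tfap2a* (25.1). In each of the 4 libraries *Nr2f1* was above *Nr2f2* and *Nr2f2* above *Tfap2b*. *Tfap2c* was also above *Tfap2a* in each of the 4 libraries, with a ratio of *Tfap2a* to *Tfap2c* of 0.50 to 0.90. The place of the priming site of each gene can also move its level.

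Within the TFAP2 family *Tfap2b* made up 85.5% and 87.3% of reads in the control and 84.0% and 84.0% in the ca-*Acvr1(A11)* libraries. *Tfap2a* made up 6.45% and 5.76% in the control and 7.56% and 5.34% in the ca-*Acvr1(A11)* libraries. *Tfap2c* made up 8.06% and 6.97% in the control and 8.40% and 10.7% in the ca-*Acvr1(A11)* libraries. The family was thus mostly *Tfap2b* in every library, and its summed level was 475 and 439 CPM in the control and 346 and 342 CPM in the ca-*Acvr1(A11)* group.

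The NR2F reads were divided more evenly. *Nr2f1* held 59.6% (exact Clopper-Pearson 95% interval 57.7 to 61.6) and 60.2% (58.3 to 62.2) in the control libraries. It held 52.5% (50.2 to 54.8) and 57.6% (55.4 to 59.8) in the ca-*Acvr1(A11)* libraries, and these intervals cover counting error only. The ratio of *Nr2f1* to *Nr2f2* was 1.48 and 1.51 in the control and 1.10 and 1.36 in the ca-*Acvr1(A11)* libraries. Both mutant ratios were below both control ratios, but the ca-*Acvr1(A11)* libraries differed from each other by more than the gap between the groups. Whether *Nr2f1* changed more than *Nr2f2* was not tested.

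**Figure D3:**
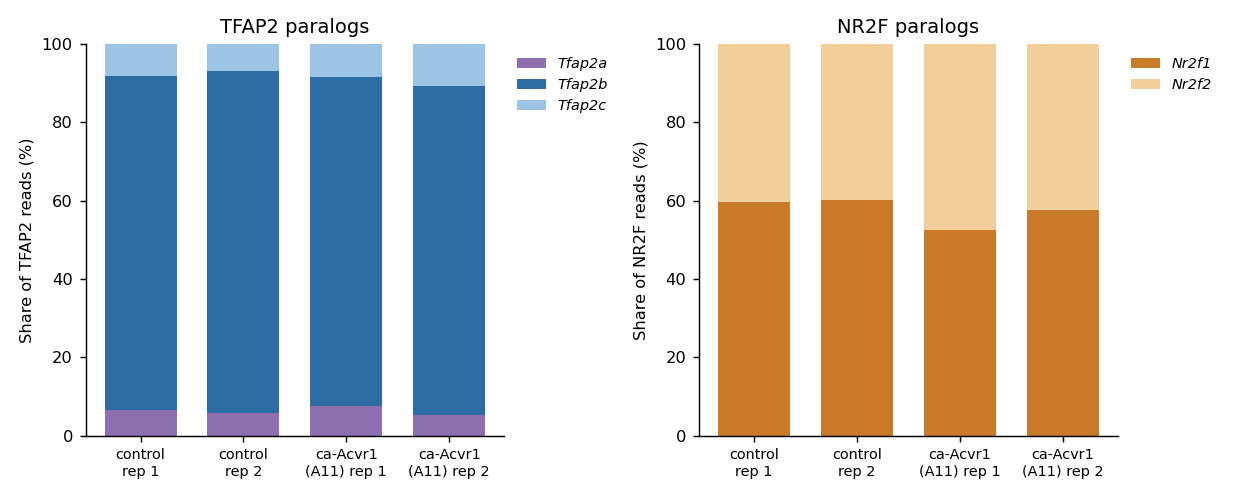
Share of TFAP2 reads (left) and of NR2F reads (right) held by each paralog, in percent, in each of the 4 libraries. Tfap2b fills 84.0% to 87.3% of each TFAP2 bar, and Nr2f1 fills 52.5% to 60.2% of each NR2F bar.

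Some markers of tissues that an NP dissection can hold differed between the groups, in both directions. The mesenchyme sum was lower and the epithelium and neural sums were higher in the ca-*Acvr1(A11)* libraries. Here and below, genes of a list that fell or rose are those called by limma at adjusted p under 0.05. Of 10 mesenchyme markers, 7 fell (*Col1a1*, *Col1a2*, *Col3a1*, *Prrx1*, *Prrx2*, *Twist1* and *Twist2*) and 0 rose, against 0.594% of all genes called lower. Fold changes were below 0 for 9 of the 10 markers and above 0 for 1. The median log2 fold change of these markers was −0.96 (edgeR called 7 lower and DESeq2 3). Their summed level was 1359 to 1736 CPM in the control and 708 to 805 CPM in the ca-*Acvr1(A11)* group. Of 12 epithelium markers 2 rose, *Cdh1* (0.78) and *Epcam* (0.72) on the log2 scale, with a median of 0.51, against 0.305% of all genes called higher. Fold changes were above 0 for 10 of the 12 and below 0 for 2. The epithelium sum was 264 to 280 CPM in the control and 398 to 433 CPM in the ca-*Acvr1(A11)* group. None of 10 neural markers passed in limma, edgeR or DESeq2. At an unadjusted limma p under 0.05, 5 of the 10 were higher, against 676 of all 12462 genes. Both ca-*Acvr1(A11)* libraries were above both controls for 7 of the 10, against 21.9% of all genes. The neural sum was 1435 to 1455 CPM in the control and 1810 to 1926 CPM in the ca-*Acvr1(A11)* group. No marker of these 3 lists was at 0 in any library. Of 6 macrophage markers 1 rose, *Cx3cr1* (1.04 on the log2 scale), with sums of 41.3 to 41.9 and 67.7 to 97.3 CPM, and DESeq2 called 0 of them. All 6 had fold changes above 0, but *C1qa* was near the floor. It had 0 and 1.33 CPM in the control and 2.08 and 4.68 CPM in the ca-*Acvr1(A11)* group. Among 6 endothelium markers and the 4 erythroid markers listed of 5, 0 were called by limma, edgeR or DESeq2 and 0 had an unadjusted limma p under 0.05, with endothelium sums of 161 to 167 and 156 to 164 CPM and erythroid sums of 5453 to 6201 and 5064 to 5440 CPM. In bulk tissue, fewer cells of a type and less RNA per cell cannot be told apart, and the part of tissue makeup in the lower *Nr2f1* was not tested.

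For each CPM of the mesenchyme sum, *Nr2f1* had 0.574 and 0.381 CPM in the control and 0.577 and 0.644 CPM in the ca-*Acvr1(A11)* group. *Nr2f2* had 0.388 and 0.252 CPM in the control and 0.523 and 0.473 CPM in the ca-*Acvr1(A11)* group, and *Tfap2b* had 0.299 and 0.221 against 0.410 and 0.356 CPM. Relative to these markers the 3 genes were not lower in any ca-*Acvr1(A11)* library than in a control library. That follows from the marker sum, which was lower by a larger factor, and is no separate result. *Col1a2* and *Col3a1* had the highest levels among these markers in every library and so weigh most in the sum. The ratio was picked with the values in view, and it shows unequal change only.

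**Figure D4:**
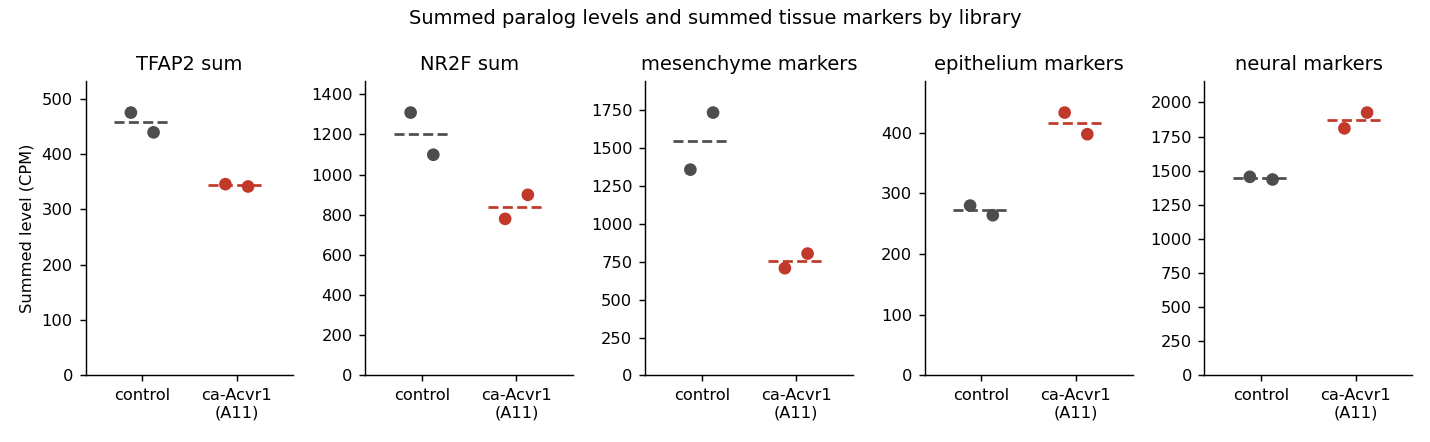
Summed level (CPM, linear axis from 0, its own scale per panel) of the 3 TFAP2 genes, the 2 NR2F genes and the mesenchyme, epithelium and neural markers in each library, with dashed lines for group means (n = 2). The TFAP2, NR2F and mesenchyme sums are lower and the epithelium and neural sums higher in both ca-Acvr1(A11) libraries.

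The genes around each family were read from 5 lists. Of the TFAP2 family and partners, 8 of 10 were tested and *Tfap2d* and *Tfap2e* were not analyzed here. In that list 2 fell and 0 rose, against 0.594% of all genes called lower. Both were CITED co-activators that bridge TFAP2 proteins to CBP and p300. *Cited2* had 81.8 and 79.9 CPM in the control and 48.2 and 44.0 CPM in the ca-*Acvr1(A11)* group (log2 fold change −0.80, limma adjusted p = 0.0164). *Cited1* had 26.6 and 31.1 CPM in the control and 12.0 and 14.5 CPM in the ca-*Acvr1(A11)* group (log2 fold change −1.06, limma adjusted p = 0.0345). For both, the groups stood well apart, edgeR also called them lower, and DESeq2 called 0 of the list. The third CITED gene, *Cited4*, named with its values in view, had 14.8 and 10.7 CPM in the control and 16.2 and 18.7 CPM in the ca-*Acvr1(A11)* group, the groups did not overlap, and its log2 fold change of 0.44 did not pass (limma adjusted p = 0.688). The list's median was 0.15, opposite in sign to its called genes. Of 11 NR2F relatives and partners, the RXR partners, corepressors and other receptors of the NR2 class, 0 passed in limma, edgeR or DESeq2, 0 had an unadjusted limma p under 0.05, and the median was −0.02. The smallest p-values there were those of *Bcl11a* (−0.30), *Ncor1* (0.26) and *Nr2c1* (0.32), log2 fold changes with limma adjusted p of 0.597 to 0.837.

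The median log2 fold change of 8 genes known to depend on TFAP2 factors in crest, facial ectoderm or melanoblasts was −0.57. Of these 8, 2 fell and 0 rose, against 0.594% of all genes called lower. They were *Alx1* and *Alx4*, homeobox genes of frontonasal mesenchyme. *Alx1* had 217 and 293 CPM in the control and 113 and 116 CPM in the ca-*Acvr1(A11)* group (log2 fold change −1.13, limma adjusted p = 8.05e-05). *Alx4* had 80.7 and 93.2 CPM in the control and 42.8 and 46.8 CPM in the ca-*Acvr1(A11)* group (log2 fold change −0.94, limma adjusted p = 0.00391). For both genes the groups did not overlap. The other 6 did not pass, 3 with fold changes below 0 and 3 above, and their extremes are named here with the values in view. *Foxd3*, a forkhead factor of early crest, had 3.07 and 7.99 CPM in the control and 1.66 and 0.468 CPM in the ca-*Acvr1(A11)* group (log2 fold change −1.61, limma unadjusted p = 0.00314, adjusted p = 0.178). The 0.468 CPM, in ca-*Acvr1(A11)* replicate 2, is 1 read. Also named with the values in view, *Sox10* had 9.71 and 7.99 CPM in the control and 2.08 and 3.28 CPM in the ca-*Acvr1(A11)* group. Its log2 fold change was −1.44 (limma unadjusted p = 0.00111, adjusted p = 0.0926), and the groups did not overlap. *Ednrb*, the endothelin receptor of migrating melanoblasts, had 14.3 and 15.5 CPM in the control and 19.1 and 27.1 CPM in the ca-*Acvr1(A11)* group (log2 fold change 0.58, limma unadjusted p = 0.0364, adjusted p = 0.474). Of 8 genes known to depend on NR2F1 or NR2F2 in some tissue, *Foxc1*, a forkhead factor of periocular and cranial mesenchyme, fell (−0.75, limma adjusted p = 0.00608). In the same list *Otx2*, a forebrain and eye homeobox gene, rose (0.70, limma adjusted p = 0.0164), and the median was −0.12. Of all genes, 0.594% were called lower and 0.305% higher.

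The median of 19 other cranial crest transcription factors was −0.32. Of these 19, 6 fell and 0 rose, against 0.594% of all genes called lower (edgeR also called 6 lower, and DESeq2 5). They were *Prrx2* (−1.42), *Snai2* (−1.32), *Prrx1* (−1.19), *Pax3* (−1.14), *Six2* (−0.90) and *Twist1* (−0.78), log2 fold changes with limma adjusted p from 1.50e-05 to 0.0412. *Prrx1*, *Prrx2* and *Twist1* are also in the mesenchyme marker list. Each of these 6 had a fold change further below 0 than *Nr2f1*, but passing the threshold favors large changes. Of all 12462 genes tested, 464 were at or below the fold change of *Nr2f1*. Of the 19, 13 had fold changes below 0 and 6 above. At an unadjusted limma p under 0.05, 10 were lower and 3 higher, against 514 lower and 676 higher of all 12462 genes. The 3 higher, named with the values in view, were *Zic1* (0.60), *Meis2* (0.44) and *Meis1* (0.44), with limma adjusted p of 0.169 to 0.390. The groups overlapped for *Zic1* and not for *Meis1* and *Meis2*. That these lists differ from one another or from the 5 genes was not tested.

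**Figure D5:**
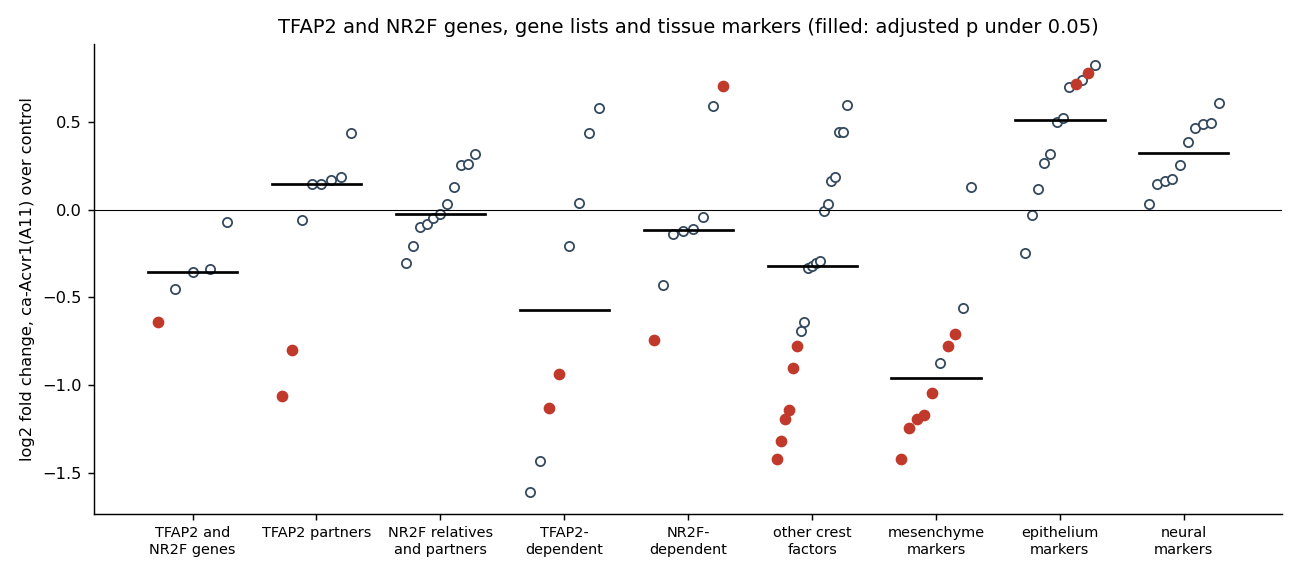
log2 fold change (ca-Acvr1(A11) over control, n = 2 and 2) of each gene of the TFAP2 and NR2F genes, of 5 gene lists and of 3 marker lists, filled red where limma adjusted p is under 0.05, with a line at each median. The TFAP2-dependent and mesenchyme medians are −0.57 and −0.96, and the epithelium median is 0.51.

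The pattern of each gene over the 4 libraries was compared with that of 6563 genes of at least 20 CPM, as the root mean square difference of log2(CPM + 1) values centered on each gene's mean. Nearest to *Nr2f1* were *Lima1* (0.067), *Cped1* (0.068) and *Azi2* (0.069), and 10 genes were within 0.1. *Lima1*, which encodes an actin-binding protein, had 269 and 241 CPM in the control and 148 and 168 CPM in the ca-*Acvr1(A11)* group and was itself called lower (limma adjusted p = 0.0115). For the other 4 genes more of the table was as near. Nearest were *Fam149a*, *Rad17* and *Zfp280b* to *Nr2f2*, with 127 genes within 0.1, and *Dsel*, *St3gal2* and *Dhrs1* to *Tfap2b*, with 109 genes. *Zfp715*, *Snapc1* and *Cgnl1* were nearest to *Tfap2a*, with 49 genes, and *Cox19*, *Pomp* and *Snrpa* to *Tfap2c*, with 311 genes. Among the 5 genes the pair with the most alike patterns was *Nr2f2* and *Tfap2b*, at 0.085. With 4 libraries in 2 groups, likeness covers both the group difference and the differences between replicates, and it says nothing of shared control.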

How the data were processed

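RNA-Seq was analyzed for 4 libraries of E11.5 NP tissue, 2 per group, grouped by their titles. Per the labels, the authors used a QuantSeq 3′ kit, and the submitters' processing notes name STAR, featureCounts 1.6.4, DESeq2 and mm10, with no roles given. The deposited values are CPM, which the authors scaled to library totals. The order of steps and the strand setting are not given in the sources used here.

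Whole reads were recovered from the CPM steps: 99.9% of 54308 values were within 0.02 reads of a whole number, with 0 exceptions among the 5 genes. One read equaled 0.415 to 0.511 CPM. Genes with mean above 1 CPM were fitted with limma 3.58.1 (R 4.3.3) on log2(CPM + 1), with a mean-variance trend, two-sided, and Benjamini-Hochberg adjustment over all genes at 0.05. The pseudocount understates changes of low genes. On the recovered reads, edgeR 4.0.16 and DESeq2 1.42.0 were alternatives, edgeR calling 94 of 10168 genes lower. Scripts were tested on simulated data. The genes and lists were chosen with earlier results of these data known. Named genes were the 5, every called gene of a list (where none was called, the 3 with the smallest p) and the 3 most alike per gene, besides those marked otherwise in the text. Promoter windows are from RefSeq. Of the lists, 2 genes are not reported here and were left out of counts and medians. A planned comparison of protein sequences was not run.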

Additional observations from a re-analysis of the deposited data

How the results depend on the processing

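Each of the 5 fold changes was recomputed under 16 alternatives (pseudocount, filters, 3 other scalings, voom, edgeR, DESeq2, replicate blocks and leaving out each library). *Nr2f1* was called lower in 15 of the 16. Leaving out 1 library moved its log2 fold change between −0.81 and −0.47, and it missed the threshold without ca-*Acvr1(A11)* replicate 1 (−0.47, limma adjusted p = 0.478), so the number of the 5 genes called lower ranged from 0 to 1. In the other 12 settings its adjusted p was 0.00139 to 0.0346. *Tfap2a*, *Tfap2b* and *Nr2f2* stayed below 0 and were called in 0 of 16. Without 1 library *Tfap2a* ranged from −0.58 (without ca-*Acvr1(A11)* replicate 1) to −0.09 (without ca-*Acvr1(A11)* replicate 2), with −0.20 without control replicate 1. *Nr2f2* ranged from −0.49 to −0.22, the latter without control replicate 1, and *Tfap2b* from −0.49 to −0.41. *Tfap2c* turned above 0 without control replicate 1 (0.086) or ca-*Acvr1(A11)* replicate 1 (0.088), in a range of −0.23 to 0.088. Without either ca-*Acvr1(A11)* replicate, the share of family reads in that group was 5.34% to 7.56% for *Tfap2a*, 52.5% to 57.6% for *Nr2f1* and 42.4% to 47.5% for *Nr2f2*. A lone library left in a group was assumed to vary like the other group.

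Of all genes, 38 were called higher and 74 lower. DESeq2 called 8 and 31 (in the lists and markers, 0 of the TFAP2 partners, 0 higher among the NR2F-dependent genes and 0 of the epithelium or macrophage markers), and leaving out 1 library gave 32 to 241 and 56 to 221. Without control replicate 1 the counts were 241 and 221. These settings also change the number of samples or the spread that is fitted, and the cause was not tested. The labels do not say whether replicate numbers mark pairs. Deviations of same-numbered libraries were little correlated (0.067), which shows no pairing and cannot exclude it. With the replicate number as a block, limma called 97 higher and 132 lower, and edgeR, tried with the block after seeing the data, called 89 and 153. Under the limma block *Nr2f1* was called (adjusted p = 0.0019). Scaling by TMM, RLE or upper quartiles moved the median of all genes by less than 0.1. At 39 to 78 reads a library, the SEs of *Tfap2a* and *Tfap2c* were 0.24 and 0.22, against 0.13 to 0.14 for the other 3 genes.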
